A study of Mus musculus with 10 samples.

Results

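HOXB4-ER and HOXB4const cell populations were compared on the 8 arrays taken at 1 h, 4 for each construct, of 10 arrays in all. Both are retrovirally transduced mouse LSK cells, that is blood stem and progenitor cells sorted from culture for GFP, Sca1 and c-kit and against lineage antigens. HOXB4ERT, written here HOXB4-ER, is HOXB4 joined to a tamoxifen-responsive form of the oestrogen receptor part, and HOXB4const is unmodified HOXB4, which is active at all times. All populations had first grown for 14 days in a serum-free culture that held mSCF, huFL, huIL-11, mIL-3 and 10 nM 4-hydroxytamoxifen (TMX), and after sorting they stayed in TMX for another 12 h. Each construct then gave 2 arrays (replicates 1 and 2) with 10 nM TMX and 2 arrays 1 h after TMX was removed. The 2 arrays of HOXB4-ER cells 4 h after removal were left out of the comparison and entered 1 alternative fit, over all 10 arrays. The labels' protocols say that each transduced population was divided between TMX and no TMX, so 2 arrays of one construct and replicate number may come from the same population and the p-values may be too small. The construct and the separate transduction and expansion of each population cannot be told apart, and no strain, sex or age of the mice is given in the sources used here.

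HOXB4 is a homeodomain transcription factor that, when overexpressed, lets blood stem cells multiply in culture. It binds DNA together with cofactors of the PBX and MEIS families. In the fusion protein, TMX releases the receptor part from chaperones and the protein moves into the nucleus, whereas without TMX it is held in the cytoplasm. LSK cells are the compartment that holds stem cells and multipotent progenitors, and cultures of them also give rise to granulocyte, mast cell, erythroid and megakaryocyte precursors.

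The 2 kinds of population differed most in a small set of genes whose 4 HOXB4-ER arrays all lay to one side of the 4 HOXB4const arrays. In HOXB4-ER cells these were the surface glycoprotein gene Cd24a, at 2.60 ± 0.34 above HOXB4const on the log2 scale (6.07-fold, standard error, n = 4 arrays each), the myeloperoxidase gene Mpo at 1.82 ± 0.28 and the stem cell transcription factor gene Mecom at 2.19 ± 0.31. In HOXB4const cells they were the actin-binding protein gene Limch1, the acyltransferase gene Glyat, where HOXB4-ER minus HOXB4const was −3.17 ± 0.29, Parm1 at −2.45 ± 0.27 and the choline dehydrogenase gene Chdh at −2.18 ± 0.23. None of these passed the test over all probe sets. With limma's moderated test and TMX and replicate number as blocks, 0 of 45037 probe sets had an adjusted p under 0.05 (Benjamini-Hochberg, smallest adjusted p = 0.249), which is 0% of those tested, and 3793 (8.42%) had an unadjusted p under 0.05, where 2251.85 would be the average if no probe set differed. Of these 581 were higher and 3212 lower in HOXB4-ER. Most of the 3793 lay among the dimmer probe sets, where signals scatter more. The 22519 brighter probe sets gave 256 of the higher and 671 of the lower ones in the same fit. The excess over 2251.85 therefore does not show differences across well-measured genes.

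The same values gave calls under one other way of sharing the spread between probe sets. When limma's moderation followed the signal level and was made robust to outliers, 58 probe sets (0.129%) passed, 21 higher and 37 lower in HOXB4-ER, and 57 of them lay at or above the median mean level of 4.13. Among them were 5 of the 12 genes named below as higher and 11 of the 12 named as lower. Calls below are those of the test without this trend, which no gene passed.

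A signal here is 1 log2 value per probe set and array. The array medians were 4.36 ± 0.30 in HOXB4-ER and 4.74 ± 0.41 in HOXB4const (SD, n = 4, exact two-sided permutation p = 0.143, where 0.0286 is the smallest possible, a test that leaves the replicate numbers out of account), and the median probe set differed by −0.17. Matched by TMX and replicate number, each HOXB4-ER array had the lower median, with differences of −0.030 and −0.65 without TMX (replicates 2 and 1) and −0.76 and −0.079 with it. Among 22519 brighter probe sets, those at or above the median level, the median difference was −0.01, with a median 95% confidence interval of 0.81 to either side. Centring each array on its median would move every difference up by 0.38 in the median, and quantile normalization by 0.18, so small differences in either direction depend on the scaling. Of the brighter probe sets 320 (1.42%) had all HOXB4-ER arrays above all HOXB4const arrays and 558 (2.48%) had them all below. If the arrays were interchangeable, a share of 0.0286 would lie wholly above or wholly below on average. With centred arrays the numbers were 797 and 155. One array, HOXB4const without TMX replicate 1, had the highest median, 5.32, and few values below 0 (0.0155%). Gapdh control probes at the 3′ end exceeded those at the 5′ end, a measure of RNA integrity or amplified length, by 1.32 ± 0.35 in HOXB4-ER and 2.23 ± 1.49 in HOXB4const (SD, n = 4, exact two-sided permutation p = 0.371). In matched arrays this measure differed between the constructs by −2.50 and −1.18 in replicate 2 (without and with TMX) and by −0.27 and 0.30 in replicate 1. In a limma fit that held this measure as a covariate, 0 probe sets passed, with 2998 at an unadjusted p under 0.05.

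**Figure D1:**
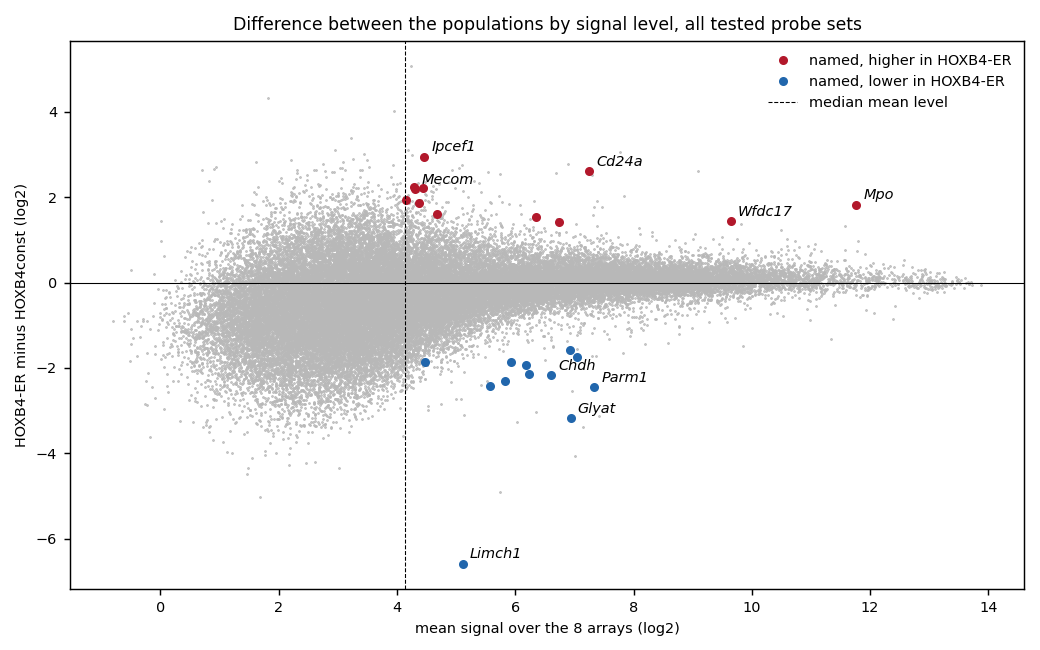
The difference HOXB4-ER minus HOXB4const (log2, vertical) is plotted against the mean signal over the 8 arrays (log2, horizontal), with 1 grey point for each of the 45037 probe sets, the 12 named genes higher in HOXB4-ER in red and the 12 lower in blue. The scatter is widest below the median level of 4.13 (dashed line), and Cd24a, Mpo, Wfdc17, Glyat, Parm1 and Limch1 lie outside the main cloud.

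The brighter Hoxb4 probe set did not separate the populations. Hoxb4 read 5.59 ± 0.49 in HOXB4-ER and 6.09 ± 0.41 in HOXB4const on 1460379_at (SD, n = 4), a difference of −0.50 ± 0.33 with a 95% confidence interval from −1.31 to 0.31 (limma adjusted p = 0.73). The dimmer probe set 1451761_at read 1.10 to 4.08 on the HOXB4-ER arrays and 4.77 to 5.21 on the HOXB4const arrays, so that these arrays did not overlap, but its difference of −2.47 ± 0.62 rests on values below the median level of all probe sets (limma adjusted p = 0.462). Whether these probes match the transgene was not analysed here, so neither value checks the construct. Of the 3 Esr1 probe sets, for oestrogen receptor alpha, the brightest gave −0.32 ± 0.28, and the others gave −0.49 ± 0.52 and −2.09 ± 0.75. As deposited, none of the 3 was higher in HOXB4-ER, the cells that carry the receptor fusion. Whether the Esr1 probes match the receptor part of the fusion was not analysed here, so these values do not check the construct either. On 1435663_at, at 2.53 ± 1.46 against 4.62 ± 0.50, the arrays did not overlap. The brightest turned to 0.06 when arrays were centred on their medians, and 1421244_at to 0.10 with quantile normalization.

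The sorted cell type was checked by its markers. Kit, the c-kit gene used in the sort, read 9.68 ± 0.58 in HOXB4-ER and 9.51 ± 0.59 in HOXB4const on its brighter probe set (SD, n = 4), with a difference of 0.17 ± 0.35 and a 95% confidence interval from −0.71 to 1.04. Cd34, a progenitor surface sialomucin, read 11.39 ± 0.32 and 11.35 ± 0.42, with an interval from −0.64 to 0.73. Flt3, a receptor of early lymphoid and myeloid progenitors, read 7.35 ± 0.55 and 6.70 ± 1.03, a difference of 0.65 ± 0.33. Among the lineage antigens of the sort, 8 were measured, 2 higher and 6 lower in HOXB4-ER with a median of −0.16, and 3 of the 8 lay at or above the median level. Itgam, the Mac-1 chain, was one of these, at 6.03 ± 1.91 against 6.24 ± 1.24, and it ranged from 4.14 to 8.04 over the HOXB4-ER arrays. Ly6a, the Sca1 gene, was not analysed here.

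Cd24a, which encodes a glycosylphosphatidylinositol-anchored sialoglycoprotein found on many maturing blood cells, was measured by 3 probe sets. On 1416034_at the HOXB4-ER arrays read 8.91 and 8.10 with TMX (replicates 1 and 2) and 8.97 and 8.20 without it, and the HOXB4const arrays read 6.91 and 5.11 with TMX and 6.93 and 4.83 without. Every HOXB4-ER array lay above every HOXB4const array, and within each construct the replicate 1 arrays read higher than those of replicate 2. The means were 8.54 ± 0.46 and 5.94 ± 1.13 (SD, n = 4), the 95% confidence interval of the difference ran from 1.77 to 3.44 and limma's adjusted p was 0.29. The other two gave 2.61 ± 0.36 and 2.52 ± 0.57, and on both the arrays also did not overlap.

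Mpo encodes the peroxidase of neutrophil primary granules and is made by early granulocyte precursors. It read 12.60 and 12.36 in HOXB4-ER with TMX (replicates 1 and 2) and 13.26 and 12.50 without, against 11.33 and 10.58 in HOXB4const with TMX and 10.98 and 10.54 without. Every HOXB4-ER array lay above every HOXB4const array, with means of 12.68 ± 0.40 and 10.86 ± 0.37 (SD, n = 4), a 3.53-fold difference (95% confidence interval 1.14 to 2.50 on the log2 scale, limma adjusted p = 0.346). The stretch of 250 bases before the Mpo start, and that of Prtn3, a protease gene of the same granules, are shown because both genes read higher on all HOXB4-ER arrays, and the stretch before Glyat, on the opposite side, because it held a homeodomain motif. All come from RefSeq promoters on GRCm38.p6, at chr11:87793534-87793783, chr10:79879417-79879666 and chr19:12633058-12633307, all on the plus strand, 5′ to 3′, with any match in capitals.
Mpo: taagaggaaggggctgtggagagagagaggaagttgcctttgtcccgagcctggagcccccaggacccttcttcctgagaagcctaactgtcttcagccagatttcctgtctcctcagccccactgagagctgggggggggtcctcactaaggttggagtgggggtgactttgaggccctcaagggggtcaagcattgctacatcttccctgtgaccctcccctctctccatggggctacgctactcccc
Prtn3: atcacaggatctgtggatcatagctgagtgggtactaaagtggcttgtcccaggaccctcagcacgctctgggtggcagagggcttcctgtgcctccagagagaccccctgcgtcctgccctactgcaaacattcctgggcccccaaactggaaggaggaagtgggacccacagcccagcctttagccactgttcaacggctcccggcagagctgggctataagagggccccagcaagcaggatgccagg
Glyat: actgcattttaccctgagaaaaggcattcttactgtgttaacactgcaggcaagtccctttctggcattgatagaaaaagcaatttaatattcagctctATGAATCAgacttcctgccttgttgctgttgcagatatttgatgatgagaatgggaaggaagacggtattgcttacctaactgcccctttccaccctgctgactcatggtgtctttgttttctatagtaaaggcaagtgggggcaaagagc

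Each stretch was searched on both strands for TGATTNAT, a HOX-PBX type site, for TAATTA, the core bound by many homeodomains, and for TGTGGT, a RUNX type site, and matches of different motifs may overlap. The Mpo and Prtn3 stretches held 0 matches and the Glyat stretch held 1, of the HOX-PBX type at bases 100 to 107 on the opposite strand. Of all 32851 promoter stretches of this length 2.82% held TGATTNAT, 4.84% TAATTA and 14% TGTGGT. Of the 24 named genes 21 had at least 1 promoter in the table, and TGATTNAT was found for 0 of 10 higher and 1 of 11 lower genes, TAATTA for 1 of 10 and 0 of 11, and TGTGGT for 2 of 10 and 2 of 11.

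The other genes higher in HOXB4-ER were of mixed function. Mecom, which encodes the zinc finger protein EVI1 needed for stem cell upkeep, read 5.82 and 5.91 with TMX and 4.81 and 5.05 without it in HOXB4-ER, and 3.71, 3.63, 3.23 and 2.24 in the same order in HOXB4const. Its HOXB4const values lay below the median level of 4.13, so the size of the difference is less certain than its direction, and of 2 further probe sets 1 had the same sign. Wfdc17, a secreted protein gene of activated macrophages, read 10.66, 10.18, 10.41 and 10.21 in HOXB4-ER and 8.90, 8.93, 8.93 and 8.93 in HOXB4const, a difference of 1.44 ± 0.25 with almost no spread in HOXB4const. Padi4, an enzyme that citrullinates histones in neutrophils, gave 1.60 ± 0.31, and Nrp2, a receptor for semaphorins and VEGF, gave 2.21 ± 0.44. For Nrp2 another probe set, 1426528_at, lay the other way, at −0.62 ± 0.45, so its probe sets disagree. The HOXB4const means of Padi4 (3.88) and Nrp2 (3.33) also lay below the median level.

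The 6 others were Ipcef1 at 2.95 ± 0.55, Sorbs3, an adhesion adaptor gene, at 2.24 ± 0.37, Cdip1 at 1.94 ± 0.31, Csrp3 at 1.85 ± 0.35, Mdfic at 1.52 ± 0.27 and Bex6 at 1.41 ± 0.29. The HOXB4const means of Ipcef1 (2.99), Sorbs3 (3.17), Cdip1 (3.18) and Csrp3 (3.45) lay below the median level, so these genes passed the filter on level through HOXB4-ER and the sizes of their differences are uncertain. Another Cdip1 probe set, 1460172_at, had arrays that overlapped, at 0.66 ± 0.59. Limma's adjusted p for the 12 genes lay between 0.29 and 0.433. Under the 20 alternative settings all 12 kept their direction, which follows largely from their choice by non-overlap.

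**Figure D2:**
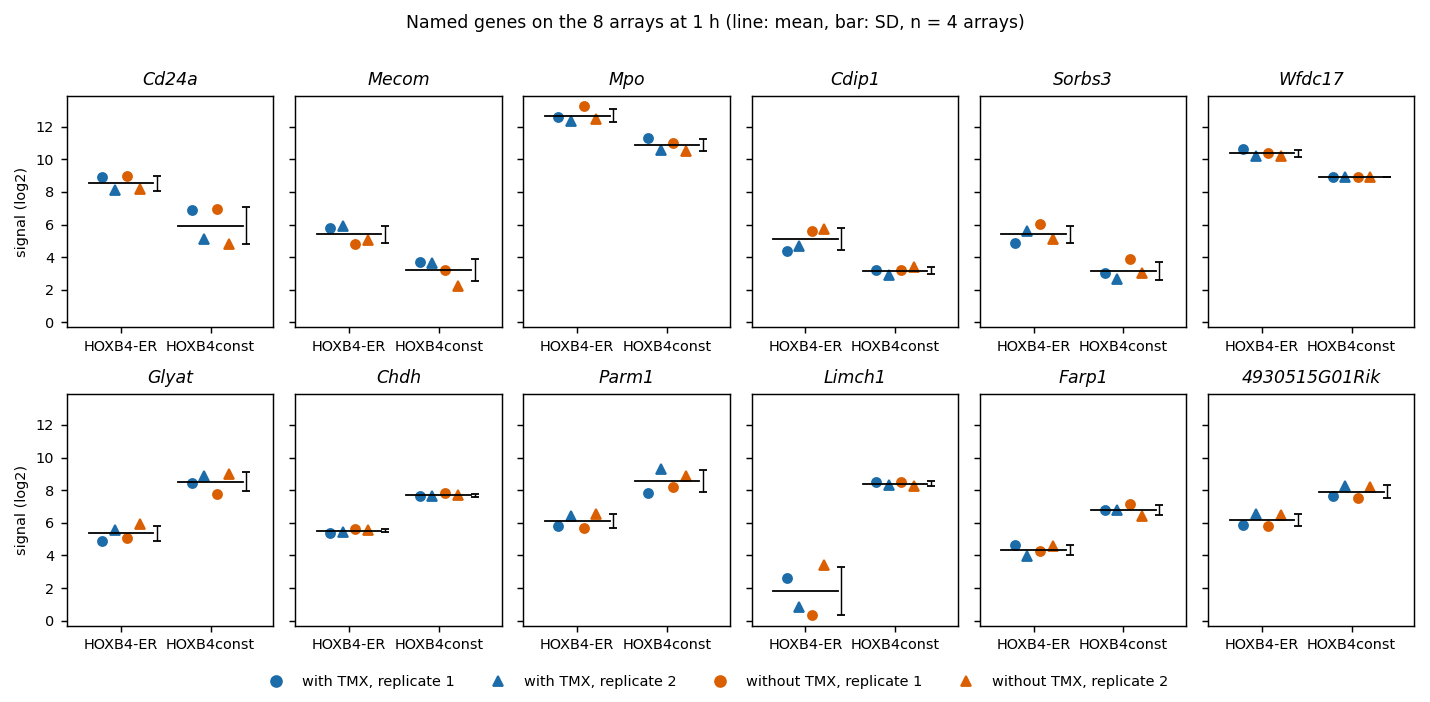
Signals (log2) of 12 named genes on the 8 arrays at 1 h, the 6 of smallest p higher in HOXB4-ER in the upper row and the 6 lower in the lower row, with TMX by colour and replicate number by marker. Lines are means and bars SDs of 4 arrays; in every panel the HOXB4-ER and HOXB4const arrays do not overlap.

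On the other side, Limch1, which encodes an actin-binding protein that activates non-muscle myosin, had the largest fitted difference of all 45037 probe sets. Its probe set 1435321_at read 8.53 and 8.29 with TMX and 8.52 and 8.27 without it in HOXB4const, and 2.62, 0.87, 0.34 and 3.43 in the same order in HOXB4-ER. The HOXB4-ER values lay below the median level of all probe sets, where signals scatter, so the fitted difference of −6.59 ± 0.77 gives a direction and not a measured size. A second probe set, 1435106_at, read 4.39 ± 0.77 in HOXB4-ER and 7.66 ± 0.11 in HOXB4const (SD, n = 4), a difference of −3.27 ± 0.42. With values below 3 set to 3, the first probe set was the only one of 43849 to pass, at −5.30 and a limma adjusted p of 0.00564.

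Glyat encodes the mitochondrial enzyme that conjugates glycine to acyl-CoAs. It read 4.86 and 5.57 with TMX and 5.04 and 5.92 without it in HOXB4-ER, against 8.47, 8.88, 7.74 and 9.002 in HOXB4const. No HOXB4-ER array came within the HOXB4const range, the 95% confidence interval ran from −3.89 to −2.46 and limma's adjusted p was 0.281, the smallest of the 24 named genes. Both of its other probe sets had the same sign, and 1424867_a_at gave −2.90 ± 0.65. Chdh, the mitochondrial enzyme that oxidizes choline towards betaine, read 5.52 ± 0.11 in HOXB4-ER and 7.70 ± 0.09 in HOXB4const (SD, n = 4), a 4.52-fold difference with little spread in either. Acot1, a cytosolic acyl-CoA thioesterase, read 4.66 ± 0.75 and 6.98 ± 0.41.

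Parm1, a mucin-like membrane protein gene, read 5.79 and 6.41 with TMX and 5.69 and 6.53 without it in HOXB4-ER, and 7.85, 9.31, 8.21 and 8.86 in HOXB4const. The replicate 2 arrays were the higher ones in both constructs, and the groups did not overlap. Farp1 gave −2.44 ± 0.30, Dst, a spectraplakin that links filaments, −2.14 ± 0.30, and Cdc42ep4, a Cdc42 effector, −1.59 ± 0.25. Another Cdc42ep4 probe set, 1416511_a_at, gave −0.38 ± 0.28 with arrays that overlapped. The remaining 4 were Rgs8, a regulator of G protein signalling, at −1.92 ± 0.30, Upp1, uridine phosphorylase, at −1.87 ± 0.29, Rabif at −1.87 ± 0.29 and the RIKEN gene 4930515G01Rik at −1.74 ± 0.23. The HOXB4-ER mean of Rabif (3.53) lay below the median level, so it passed the filter on level through HOXB4const and the size of its difference is uncertain. A brighter Rabif probe set, 1419927_s_at, gave −0.11 ± 0.25 with arrays that overlapped. Limma's adjusted p for these 12 genes lay between 0.281 and 0.346. All 12 kept their direction under the 20 alternatives, again largely through their choice by non-overlap. With centred arrays 8 of these 12 still lay wholly below, while the arrays of 4930515G01Rik, Acot1, Rgs8 and Cdc42ep4 overlapped; the 12 genes on the other side all stayed wholly above.

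The differences had the same sign with TMX and without it. In a fit with 1 mean for each construct and TMX condition, Cd24a gave 2.50 ± 0.53 with TMX and 2.70 ± 0.53 without, Mecom 2.19 ± 0.48 and 2.20 ± 0.48, and Mpo 1.52 ± 0.40 and 2.12 ± 0.40. For Glyat the values were −3.46 ± 0.42 and −2.89 ± 0.42, for Chdh −2.20 ± 0.37 and −2.15 ± 0.37, and for Limch1 −6.66 ± 1.20 and −6.51 ± 1.20. That all 24 named genes share a sign in both conditions follows from their choice by non-overlap. The difference between the conditions was tested as an interaction: for the 24 genes it lay between −1.24 ± 1.07 (Ipcef1) and 0.90 ± 0.56 (Cdip1), with limma's adjusted p at 1 for each.

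**Figure D3:**
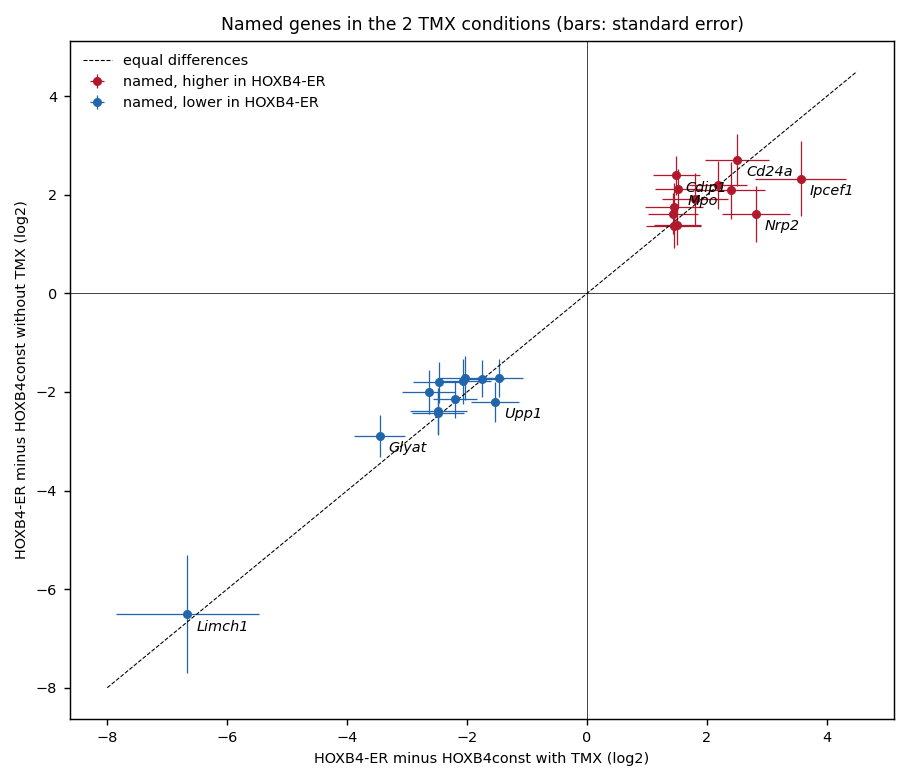
Differences HOXB4-ER minus HOXB4const (log2) of the 24 named genes with TMX (horizontal) and without TMX (vertical), with bars for the standard error. Points lie near the dashed line of equal differences, with Nrp2 and Ipcef1 larger with TMX and Upp1 and Cdip1 larger in size without it, each with an adjusted p of 1 for the interaction.

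Over all probe sets, 0 passed with TMX (2336 at an unadjusted p under 0.05, smallest limma adjusted p = 0.833), 0 without TMX (3242, smallest adjusted p = 0.476) and 0 for the interaction (1965, smallest adjusted p = 1), each 0% of those tested. The interaction was measured to within 1.78 to either side for a median brighter probe set (95% confidence, not adjusted for the number of probe sets). This is not a limit of detection, since the larger interactions given next did not pass either. Sema6c, a semaphorin gene, read lower in HOXB4-ER with TMX (−2.13 ± 0.46) and higher without (2.89 ± 0.46), an interaction of 5.02 ± 0.66. Nampt, the NAD salvage enzyme, had an interaction of 4.20 ± 0.71, and Cep55, a cytokinesis gene, of 4.65 ± 0.74. In the opposite direction stood Sp6 at −4.74 ± 0.77, Fam219a at −3.36 ± 0.75 and Rfx3 at −3.01 ± 0.62. For Sp6 the HOXB4-ER arrays stayed between 4.07 and 4.76, and the HOXB4const arrays read 2.17 and 1.16 with TMX and 6.86 and 5.61 without. The HOXB4const without TMX replicate 2 array read 1.31 for Nampt and 1.06 for Cep55, so these interactions too rest partly on dim signals.

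Lists of marker and pathway genes were described next, with each gene read from its brightest probe set. Among all 18193 genes, 41.5% were higher in HOXB4-ER, the median difference was −0.09, and the 4 arrays of HOXB4-ER lay wholly above those of HOXB4const for 244 genes (1.34%) and wholly below for 584 (3.21%). With centred arrays 67.3% of genes were higher and the median was 0.29, and the medians of the mast cell, erythroid, megakaryocyte, monocyte, B lymphoid, T and NK, stromal and HOXA lists, which lay below 0 as deposited, then lay between 0.08 and 0.37. Over all genes, 575 lay wholly above and 230 wholly below with centred arrays, and 326 and 411 with quantile normalization. Centring thus raised the number above and lowered the number below in general, and list counts must be read beside this. Of 23 list members wholly below as deposited, besides the 24 named genes, 7 stayed so with centred arrays and 14 with quantile normalization. Of 25 wholly above, 21 and 20 did. No list member passed limma's test (adjusted p under 0.05). With trend and robust moderation 9 did, Mpo (limma adjusted p = 4.69e-06), Ms4a2 (4.55e-05), Ndrg1 (0.000486), Selp (0.00402), Prtn3 (0.00853), Procr (0.00995), Nkg7 (0.0102), Cpa3 (0.0238) and Mcpt2 (0.0379). In bulk samples fewer cells of a type and less RNA per cell cannot be told apart.

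Of 22 neutrophil and granule genes measured, 14 were higher and 8 lower in HOXB4-ER, with a median of 0.43 beside −0.09 for all genes. The medians of matched differences of this list were 0.72 and 0.99 in replicate 1 (without and with TMX). In replicate 2 they were 0.28 and −0.14, so the list median came largely from replicate 1. Wholly above were 3, Mpo, Padi4 and Prtn3, and wholly below were 0. With quantile normalization the first number was 4 and with centred arrays 5, while that of all genes rose from 244 to 326 and 575. The mean level over the list ran from 5.61 to 7.81 on the HOXB4-ER arrays and from 5.43 to 6.19 on the HOXB4const arrays, which overlap. Prtn3, proteinase 3 of the same granules as Mpo, read 11.07 and 11.19 with TMX and 11.19 and 11.42 without it in HOXB4-ER, and 10.56, 10.24, 10.20 and 9.96 in HOXB4const, a difference of 0.98 ± 0.27. Elane, neutrophil elastase, read 9.79 and 5.88 with TMX and 9.85 and 6.40 without in HOXB4-ER, and 6.57, 5.004, 4.73 and 5.34 in HOXB4const. Both replicate 1 arrays of HOXB4-ER stood far above the rest and the replicate 2 arrays overlapped HOXB4const, so the difference of 2.57 ± 0.80 came largely from replicate 1. Ctsg, cathepsin G, at 0.26 ± 0.24, and Ms4a3, a gene of granulocyte and monocyte progenitors, at −0.08 ± 0.24, had arrays that overlapped, and Csf3r, the G-CSF receptor, gave 0.44 ± 0.27.

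Of 21 mast cell and basophil genes 10 were higher and 11 lower, with a median of −0.06. In HOXB4-ER 4 lay wholly below and 0 wholly above, beside 3.21% and 1.34% of all genes. Ms4a2, the beta chain of the IgE receptor, read 8.67 and 9.53 with TMX and 8.84 and 9.38 without it in HOXB4-ER, and 10.39, 10.76, 10.29 and 10.93 in HOXB4const. Every HOXB4-ER array was lower, by 1.49 in the fit (standard error 0.24, limma adjusted p = 0.35). The other 3 were Hdc, histidine decarboxylase, at −0.78 ± 0.24, the mast cell carboxypeptidase gene Cpa3 at −0.72 ± 0.25 and the cytokine gene Il4 at −1.72 ± 0.36, of which Cpa3 was chosen after its values were seen. With centred arrays 1 gene lay wholly below and 1 wholly above, so the number 4 depends on the scaling: Il4 stayed wholly below, and the arrays of Ms4a2, Hdc and Cpa3 overlapped. The mean level over the list ran from 6.35 to 7.68 on the HOXB4-ER arrays and from 6.64 to 7.27 on the HOXB4const arrays. Not all mast cell genes lay lower. The chymase gene Mcpt2 was at 8.35 ± 1.80 against 6.43 ± 0.72, a difference of 1.92 ± 0.48 carried by the replicate 1 arrays, and Fcer1a, the IgE receptor alpha chain, gave −0.19 ± 0.50.

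**Figure D4:**
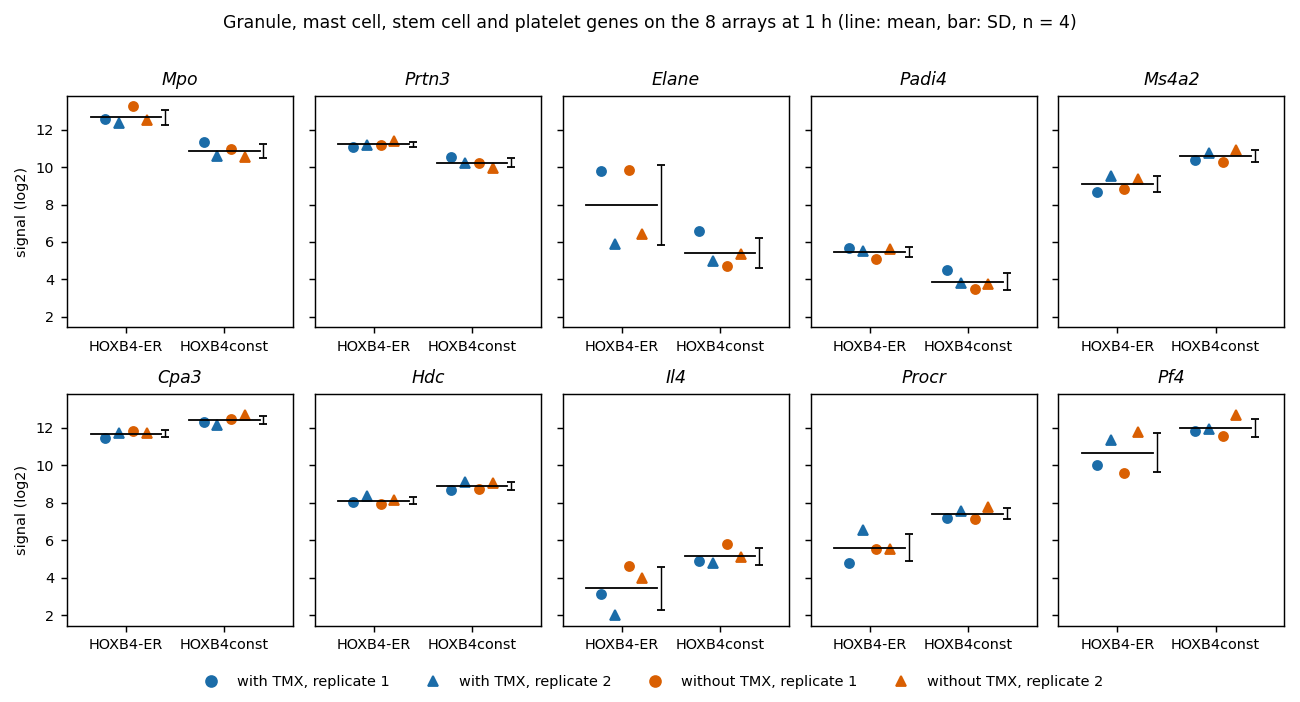
Signals (log2) on the 8 arrays at 1 h of granule genes (Mpo, Prtn3, Elane, Padi4), mast cell genes (Ms4a2, Cpa3, Hdc, Il4), the stem cell receptor gene Procr and the platelet gene Pf4, with lines at means and bars for SDs of 4 arrays. As deposited, the arrays do not overlap for 8 of the 10 genes; Elane and Pf4 overlap and differ between the replicate numbers in HOXB4-ER.

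Stem cell surface genes lay on both sides as deposited. Of 26 measured 14 were higher and 12 lower, with a median of 0.10. Wholly above lay 2 and wholly below 2, beside 1.34% and 3.21% of all genes. With centred arrays 88.5% were higher with a median of 0.48, 2 lay wholly above and 0 wholly below. Procr, the endothelial protein C receptor that marks long-term stem cells, read 4.79 and 6.55 with TMX and 5.52 and 5.51 without it in HOXB4-ER, against 7.20, 7.56, 7.14 and 7.77 in HOXB4const (difference −1.82 ± 0.36, limma adjusted p = 0.415). Abcg2, the transporter behind the side population stain, read 5.49 and 6.40 with TMX and 5.58 and 5.55 without in HOXB4-ER, and 3.57, 4.55, 2.07 and 0.87 in HOXB4const. As deposited the arrays of neither gene overlap, and they lie in opposite directions; with centred arrays those of Procr overlap and those of Abcg2 do not. Cd27, a receptor present on most multipotent progenitors, gave 1.17 ± 0.30, and Itgb3, the beta 3 integrin, −0.93 ± 0.29. The arrays of Cd27 overlapped with quantile normalization and those of Itgb3 with centring.

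Among 31 stem cell transcription factor genes 18 were higher and 13 lower, with a median of 0.07. Mecom and Mycn lay wholly above and Lyl1 wholly below, beside 1.34% and 3.21% of all genes. With centred arrays the median was 0.45, 3 lay wholly above and 0 wholly below. Mycn, chosen after its values were seen, read 10.25 ± 0.29 against 9.23 ± 0.80 (SD, n = 4), with 1 of 2 other probe sets of the same sign, and Lyl1, a basic helix-loop-helix factor, gave −0.53 ± 0.25. Sox4 gave 0.77 ± 0.26, with 1 of its 7 other probe sets of the same sign, and the immediate early factor gene Egr1 0.99 ± 0.32, with arrays that overlapped. Gata2, a factor of stem and mast cells, gave −0.39 ± 0.28.

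All 9 measured HOXB cluster genes read lower in HOXB4-ER, with a median of −0.77, but 3 of the 9 lay at or above the median level and only Hoxb6 lay wholly below (1.09 ± 1.80 against 4.48 ± 0.48), at a dim signal. With centred arrays the median was −0.39. Of 11 HOXC and HOXD genes 9 were lower, with a median of −0.75, and 2 of the 11 lay at or above the median level; with centred arrays 45.5% were higher and the median was −0.37. Of 9 HOXA genes 3 were higher and 6 lower, and the brighter Hoxa9, a leading factor of blood progenitors, gave 0.02 ± 0.28. Of 10 TALE homeodomain genes, a class that includes the PBX and MEIS cofactors of HOX proteins, 8 were higher, with a median of 0.33. Tgif1, of neither cofactor family, gave 0.91 ± 0.32, Meis1 0.36 ± 0.31 and Pbx3 −0.76 ± 0.37.

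**Figure D5:**
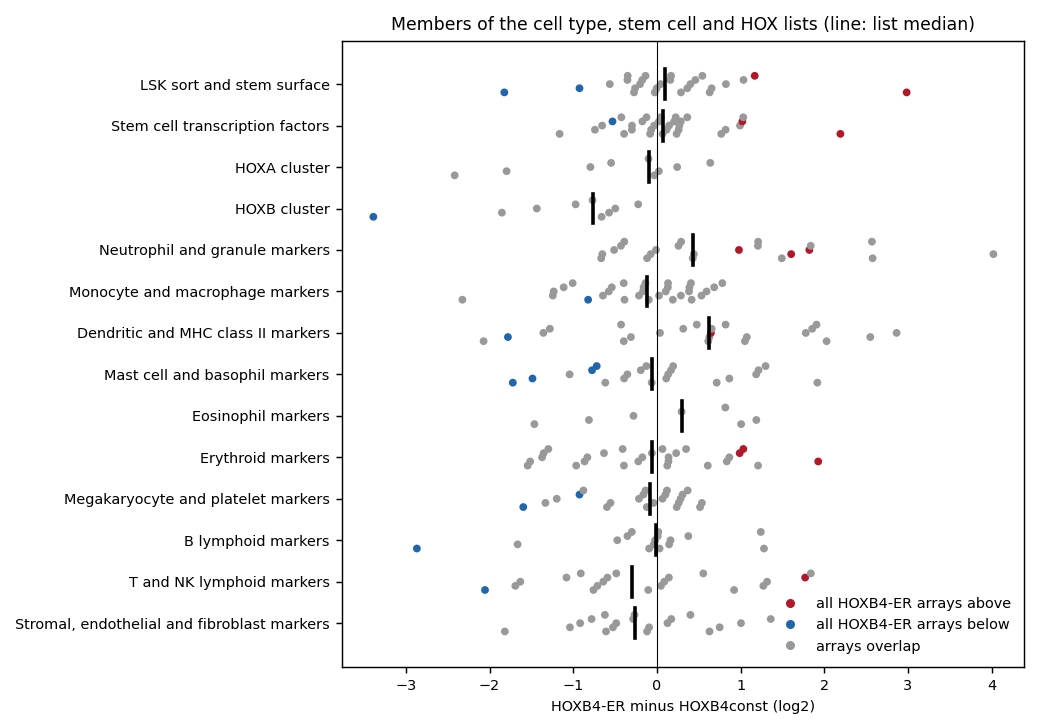
Differences HOXB4-ER minus HOXB4const (log2) of the measured members of 14 lists of cell type, stem cell and HOX genes, 1 point a gene; black lines are list medians. Red and blue points are genes whose 4 HOXB4-ER arrays all lay above or below the 4 HOXB4const arrays, and most members (grey) overlapped.

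Red cell and platelet genes were split too. Of 27 erythroid genes 13 were higher and 14 lower, with a median of −0.06, and 3 lay wholly above (1.34% over all genes). These were Car2, carbonic anhydrase 2, at 8.003 ± 0.26 against 6.97 ± 0.35, the erythropoietin receptor gene Epor at 5.34 ± 0.15 against 4.35 ± 0.67, chosen after its values were seen, and the dim embryonic globin gene Hbb-bh1, whose 2 other probe sets had the opposite sign. Of 22 megakaryocyte and platelet genes 10 were higher and 12 lower, with a median of −0.08. Itgb3 and Rab27b lay wholly below (3.21% over all genes), and only Rab27b did with centred arrays. Pf4, platelet factor 4, read 10.00 and 11.36 with TMX and 9.59 and 11.76 without it in HOXB4-ER, and 11.84, 11.95, 11.57 and 12.68 in HOXB4const, a difference of −1.33 ± 0.39. Its replicate 1 arrays were the lowest in HOXB4-ER. Selp, P-selectin, gave −1.20 ± 0.26, also with overlap.

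Other blood lineages gave few members that stood apart. Of 30 monocyte and macrophage genes 14 were higher and 16 lower (median −0.12), and Fcgr3, a low-affinity IgG receptor chain, lay wholly below at 9.13 ± 0.54 against 9.95 ± 0.17, though with centred arrays and with quantile normalization its arrays overlapped. The 23 dendritic and MHC class II genes had a median of 0.63 with 16 higher, and 0.28 without the HOXB4const without TMX replicate 1 array. Their medians of matched differences were 1.51 and 1.05 in replicate 1 (without and with TMX) and 0.05 and −0.44 in replicate 2. The HOXB4-ER level of Cd83 in that list ran from 1.96 to 8.11, with replicate 1 high in both constructs. Of 20 T and NK genes, Nkg7, a granule membrane protein gene, lay wholly above at 8.22 ± 0.22 against 6.45 ± 0.70, a difference of 1.77 ± 0.42 (limma adjusted p = 0.462). The 16 B lymphoid genes had a median of −0.01, and the 19 stromal, endothelial and fibroblast genes −0.27 with 0 wholly above or below. The part of any of these cell types in the results was not tested.

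Signalling lists held few members that stood apart. Of 28 interferon response genes 23 were higher in HOXB4-ER with a median of 0.42, and 1 lay wholly above, Ifit2 at 7.03 ± 0.11 against 5.84 ± 0.88 (1.19 ± 0.40). With centred arrays 6 lay wholly above, with quantile normalization 2 and without the HOXB4const without TMX replicate 1 array 3. Over all genes the number rose too, from 244 to 575, 326 and 394 in the same order. The medians of matched differences of this list were 0.43 and 1.10 in replicate 1 (without and with TMX) and 0.32 and −0.28 in replicate 2. Of 32 Wnt pathway genes 10 were higher, 2 lay wholly above and 2 wholly below (1.34% and 3.21% over all genes). With centred arrays 46.9% were higher, 3 lay wholly above and 0 wholly below, and with quantile normalization 2 and 0. The antagonist gene Dkk1 lay wholly below as deposited at −1.01 ± 0.30, and Ccnd1, cyclin D1, wholly above at 0.97 ± 0.26, also under both scalings. Ccnd1 read 8.27 and 7.67 with TMX and 8.53 and 7.58 without in HOXB4-ER, and 7.57, 6.57, 7.22 and 6.83 in HOXB4const, so the gap between the nearest arrays was small. In the Notch list 0 genes lay wholly above and 2 wholly below (1.34% and 3.21% over all genes), and with centred arrays 2 and 0. Notch2 lay wholly below as deposited at 8.39 ± 0.17 against 9.12 ± 0.21, and the ligand gene Jag1 gave 2.38 ± 0.56 with overlap. In the TGF-beta, BMP and ID list the receptor gene Bmpr1a gave −1.49 ± 0.42 and Id3, below the median level, 2.03 ± 0.65. The arrays of Bmpr1a overlapped under both other scalings. The MYC antagonist gene Mxd4 gave −0.98 ± 0.31, with arrays that overlapped when centred, and the hypoxia-responsive gene Ndrg1 −1.65 ± 0.27 (6.999 ± 0.38 against 8.64 ± 0.21).

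Genes of cell division and of basic metabolism had medians near 0 as deposited. The median was −0.02 over 32 S-phase genes, −0.08 over 31 G2 and M-phase genes, 0.03 over 21 cytosolic ribosomal protein genes, 0.07 over 29 oxidative phosphorylation genes and 0.03 over 22 cholesterol synthesis genes. In the S-phase list no difference exceeded 0.58 in size. Of 26 proteasome genes 3 lay wholly above as deposited (1.34% over all genes). That number was 4 with centred arrays, and 1 with 1 wholly below under quantile normalization. Of these 26 genes 20 were higher with a median of 0.08, and so were 25 of 30 ribosome biogenesis genes with a median of 0.11. With centred arrays these medians were 0.29 to 0.49, so the sign of those below 0 depends on the scaling.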

How the data were processed

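Per the labels' protocols, RNA of LSK cells (0.7 to 1 µg) was amplified with a T7 primer and read on Affymetrix Mouse Genome 430 2.0 arrays. The authors deposited log2 signals, 1 per probe set and array, and GCOS and RMA are named in the submitters' processing notes with no role for either. Trimmed by 2% at each end, the mean of the antilogged values was nearly equal on all arrays, so the values were not normalized again. The 64 controls among the 45101 probe sets were removed. Of the remaining 45037, 34945 have 1 gene symbol, 932 several and 9160 are not listed in the platform annotation.

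Differences are HOXB4-ER minus HOXB4const, fitted with limma 3.58.1 in R 4.3.3 on the 8 arrays at 1 h, with TMX and replicate number as fixed blocks (4 residual and 1.84 prior degrees of freedom), Benjamini-Hochberg adjustment over all 45037 and a threshold of 0.05. A ± after a difference is a standard error and after a level an SD. The script was tested on simulated data.

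The text names the 12 higher and 12 lower genes of smallest p at or above the median level whose arrays did not overlap. It also names some of the 6 genes each way of smallest interaction p at that level. Hoxb4, Esr1 and the sort markers are named too, and in each of the 41 lists up to 4 members of smallest p. The members and lists were chosen with earlier results of these data known. Replicate numbers were taken to pair the samples: the replicate 2 minus replicate 1 differences correlated in 6 of 6 pairs of groups (0.21 to 0.40, 22519 probe sets). No 2 arrays were identical. Depth does not apply to arrays, and their number limits the precision. The alternatives and their effect are given in the closing section. The centring, quantile and leave-one-out counts and lists of non-overlapping probe sets, and the leave-one-out quality measures, were chosen after seeing the data.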

Additional observations from a re-analysis of the deposited data

Results flagged for a closer look

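In 2 of 72 groups of 4 arrays tested, 1 array lay far from the others by Dixon's criterion, where chance gives about 1 in 20. The HOXB4const with TMX replicate 1 array read 8.896 for Wfdc17, while the other 3 HOXB4const arrays lay between 8.926 and 8.931, so that the whole range was very small. The HOXB4const without TMX replicate 1 array, which stood apart in its median too, read 4.96 for Ipcef1, while the other 3 lay between 2.15 and 2.47.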

How the results depend on the processing

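Replicate number was a block in the comparison; with no replicate block 0 probe sets passed (limma adjusted p at least 0.165), the same call, and the block changed no other call. The count was 0 under every alternative run except values floored at 3 (1) and moderation with trend and robust settings (58), and the smallest adjusted p of the others lay between 0.0649 and 0.798. The 24 named genes kept their sign under all 20 settings. They were chosen by non-overlap, so fits on these arrays or on part of them could hardly give another sign. Counts of brighter probe sets whose arrays did not overlap moved from 320 higher and 558 lower to 797 and 155 with centred arrays. With 1 array left out they lay between 463 and 816 and between 752 and 1313, both highest without HOXB4const with TMX replicate 1. Arrays that do not overlap still do not when 1 is left out, so a rise of these counts was fixed in advance. The beta-actin 3′ minus 5′ measure was 0.40 lower in HOXB4-ER (HOXB4-ER minus HOXB4const −0.40). With 1 array left out this contrast ranged from −0.74 to 0.052, the latter without HOXB4const without TMX replicate 2. Small differences turned sign: with replicate 1 arrays only Kit gave −0.50 and −0.046 on its probe sets and Cd34 −0.20; with the Gapdh covariate Kit gave −0.50 and Cd34 −0.15; with quantile normalization Cd34 gave −0.036 and Esr1 (1421244_at) 0.10; with centred arrays Esr1 (1460591_at) gave 0.059. With 1 array left out, the 2 Kit probe sets ranged from −0.15 to 0.57 and from −0.11 to 0.42, Cd34 from −0.086 to 0.22 and Esr1 (1421244_at) from −0.90 to 0.014. Of the list medians, 69 values moved by more than the spread of matched arrays. The causes were not tested. Signals below the median level scatter widely, which limits what can be said of dim genes.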

Other observations

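Cd83, Klrd1 and Egr1, chosen after their values were seen, read higher on both replicate 1 arrays of each construct than on its replicate 2 arrays. Cd83, a marker of mature dendritic cells, read 8.11 and 7.80 on the replicate 1 arrays of HOXB4-ER and 3.27 and 1.96 on those of replicate 2, and in HOXB4const 4.83 and 5.82 against 1.59 and 1.48. Klrd1, the NK receptor chain CD94, read 9.25 and 8.96 against 3.42 and 4.06 in HOXB4-ER, and 7.06 and 6.99 against 2.27 and 4.09 in HOXB4const. Egr1 read 9.09 and 8.84 against 6.75 and 6.12 in HOXB4-ER, and 8.18 and 7.38 against 5.37 and 5.90 in HOXB4const.

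The 2 arrays of HOXB4-ER cells 4 h after TMX removal were left out of the comparison and entered 1 alternative fit, over all 10 arrays. They read 1.87 and 1.58 for Limch1 (replicates 1 and 2), 8.64 and 7.46 for Cd24a, 12.48 and 12.84 for Mpo, 3.51 and 5.54 for Glyat, 4.32 and 4.81 for Chdh and 5.92 and 6.55 for Parm1. For Hspa1a, inducible HSP70, they read 6.996 and 7.02, and the 8 arrays at 1 h lay between 0.76 and 4.72.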
